A study of Mus musculus with 5 samples.

Results

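The genes described here are 10 markers of the macrophages and Langerhans cells of skin: *Cd207*, *Cd68*, *Lyz2*, *Adgre1*, *Csf1r*, *Cd14*, *Mrc1*, *Cd163*, *Cd74* and *Epcam*. They were taken as known markers of these cells, with no threshold on a measured value. Every probe set that the platform annotation gives to 1 of these genes and to no other was taken, with *Emr1* accepted as the older symbol of *Adgre1*. This gave 13 probe sets of 10 genes, out of 34945 probe sets with 1 gene symbol and 18193 genes. *Csf1r* had 3 probe sets, *Epcam* had 2 and each of the other 8 genes had 1. All 13 passed the filter on low intensity, and the dimmest of them lay at the 71.6th percentile of mean intensity over the array.

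Dorsal skin was taken at postnatal day 23 from 2 *Clock* mutant mice and 3 wild-type (WT) littermates, and the RNA of each mouse was hybridized to its own Affymetrix array. Each skin was staged by histology as telogen, the resting phase of the hair cycle, which the study chose because a delay of the hair cycle in the mutants had not yet set in. *Clock* mutant replicate 1 was male, and *Clock* mutant replicate 2 and the 3 WT mice were female. The line was kept on a C57BL/6J background, no other allele or agent is named in the labels, and the labels give neither the zygosity of the array mice nor the hour of collection. As background, the classical *Clock* mutant allele yields a CLOCK protein that still pairs with its partner BMAL1 but activates transcription poorly. It is carried in every tissue, so the immune cells themselves are mutant. RNA came from whole dorsal skin, and in such bulk samples fewer cells of a type and less RNA per cell cannot be told apart.

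Langerhans cells are antigen-presenting cells that live between the keratinocytes of the epidermis, and macrophages are phagocytes spread through the dermis and around hair follicles. Both lineages depend on the receptor CSF1R, which binds CSF1 and, in the epidermis, mainly IL-34 made by keratinocytes. Langerhans cells are known by langerin (*Cd207*), by EpCAM and by abundant MHC class II with its invariant chain (*Cd74*). Macrophages carry F4/80 (*Adgre1*), the lysosomal proteins CD68 and lysozyme (*Lyz2*), the lipopolysaccharide co-receptor CD14 and the scavenging receptors CD206 (*Mrc1*) and CD163. None of these genes belongs to 1 cell type alone. *Epcam* is also made by epithelial cells, *Cd74* by B cells and dendritic cells, and *Mrc1* by some endothelium.

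CLOCK and BMAL1 bind the canonical E-box, CACGTG, a motif that reads the same on both strands. RefSeq promoter windows of assembly GRCm38.p6, from 250 bases before to 50 bases after the annotated start, were at hand for 6 of the 10 genes: *Cd207*, *Cd68*, *Lyz2*, *Mrc1*, *Cd163* and *Epcam*. The motif stood in 1 of the 6 windows, that of *Epcam*, against 7.15% of 32851 windows in the whole table. It is shown with its neighbours because it was the only match among these markers. The stretch shown lies at chr17:87635999-87636024 on the plus strand. The capitals mark the E-box, which begins at position 87636009, base 31 when the annotated start is counted as base 1.
*Epcam*: actgattctgCACGTGagacctgcgg
The match is a description of letters and no evidence of binding. *Csf1r*, *Cd14*, *Cd74* and *Adgre1* had no window in the table.

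Of 12 clock genes tested, 2 passed the adjusted threshold, *Per3* and *Per2*, both lower in the mutants. *Per3*, a repressor in the negative limb of the clock, had intensities of 196 and 247 in *Clock* mutant replicates 1 and 2 and of 815, 676 and 591 in WT replicates 1 to 3. It fell by 1.64 on the log2 scale (limma, adjusted p = 0.0144). *Per2* fell by 1.17 (adjusted p = 0.0321), and *Dbp*, a clock-controlled transcription factor, differed by -1.32 (adjusted p = 0.115). Of the other clock genes, *Arntl* and *Nr1d1* (named after their values were seen) had the positive differences, 0.68 and 0.65 (adjusted p = 0.158 and 0.2, limma), and the remainder were negative. The calls of *Per2* and *Per3* were lost when *Clock* mutant replicate 1, WT replicate 2 or WT replicate 3 was left out, with differences of -1.12, -1.13 and -1.09 for *Per2* and of -1.48, -1.66 and -1.75 for *Per3*. The arrays also differed in ways that the genotype labels do not give. Median intensities were 106 on the array of *Clock* mutant replicate 1 and 114 to 118 on the other 4. The ratio of 3' to 5' signal of the *Gapdh* control probe sets was between 0.86 and 1.05, and that of pyruvate carboxylase was 54.1 in *Clock* mutant replicate 1 and 19.1 to 28.1 elsewhere. Hair shaft and root sheath genes, which growing follicles make (7 of 12 tested), had a summed intensity of 10140 in *Clock* mutant replicate 1, 4569 in *Clock* mutant replicate 2 and 3177 to 4487 in WT skin. Except in *Clock* mutant replicate 1, most of each sum was *Gata3* (named after its values were seen). *Gata3* had 3014 and 3321 in the mutants and 3152, 2715 and 3031 in WT skin. *Clock* mutant replicate 2 read below WT replicate 1 in *Krt25*, *Krt27* and *Krt71* and above it in *Krt73*, *Krt31* and *Tchh*. Over the 7 tested genes of this list, the median log2 deviation from the WT mean was 3.09 and 0.965 in *Clock* mutant replicates 1 and 2. In WT replicates 1 to 3 it was 0.78, -0.33 and -0.43, so the WT arrays were not alike in these genes. *Clock* mutant replicate 1 thus stood apart from the other arrays in these measures and in sex, and its sex, its other features and the array itself cannot be told apart. Each comparison of a marker below is therefore given with all 5 arrays and with the 4 female mice alone. For other genes and lists the value in female mice is given where it turns or differs from that of all arrays by over 1.5 times. In the latter the mutant group is 1 mouse, which is assumed to vary as the WT mice do.

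No marker probe set differed between *Clock* mutant and WT skin at the threshold used. In limma's moderated test, 0 of 13 had an adjusted p under 0.05, against 0.0888% of the 27022 probe sets tested, and the adjusted p-values of the 13 ran from 0.416 to 0.971. At an unadjusted p under 0.05 the count was 1 of 13, *Cd14*, which was lower in the mutants, against 10.8% of all probe sets in either direction and 6.71% in that direction. A Cyber-T style test, the kind of test the study used for its *Bmal1* arrays, also called 0 of 13. The log2 difference, *Clock* mutant minus WT, was negative for 9 probe sets and positive for 4, with a median of -0.12. Over all tested probe sets 53.5% were negative and the median was -0.02. The groups did not overlap in 3 of the 13 (*Cd14*, *Cd163* and 1 probe set of *Csf1r*), each lower in both mutants. Over all probe sets 27.9% did not overlap, 15.1% with the mutants lower and 12.8% with the mutants higher. The standard errors of the 13 differences ran from 0.083 to 0.214 on the log2 scale, and their 95% intervals together reached from 0.637 to 1.33 times the WT level. The number of arrays limits this precision.

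**Figure D1:**
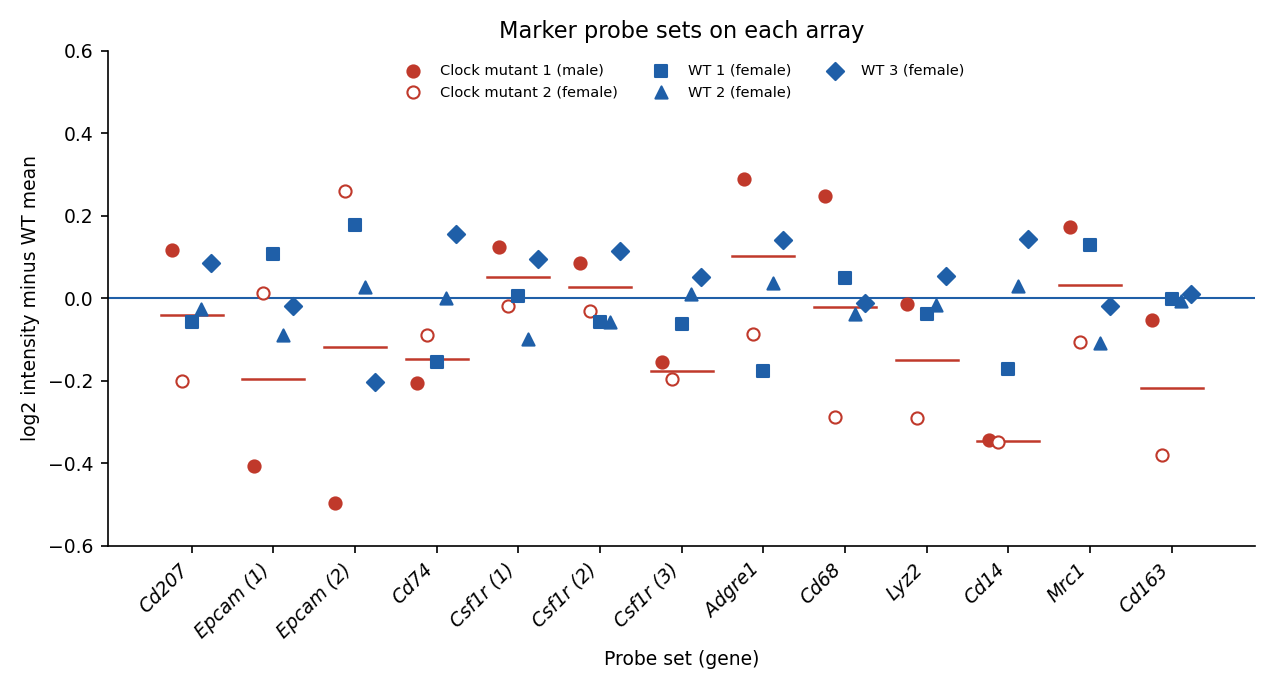
Log2 signal intensity of each of the 13 marker probe sets on each of the 5 arrays, as the distance from the mean of the 3 WT arrays of that probe set. Circles are the *Clock* mutant mice (filled, replicate 1, male, and open, replicate 2, female). The square, triangle and diamond are WT replicates 1, 2 and 3, and the short line is the mutant mean. Both mutants lie below every WT array for *Cd14*, *Cd163* and the third *Csf1r* probe set, and the mutants lie far apart for *Cd68*, *Cd207* and *Epcam*.

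Among the markers of Langerhans cells, *Cd207* encodes langerin, the lectin that forms Birbeck granules. *Cd207* (1425243_at) had intensities of 563 and 452 in *Clock* mutant replicates 1 and 2 and of 499, 509.8 and 552 in WT replicates 1 to 3. The mutants were the highest and the lowest of the 5 arrays, with all 3 WT arrays between them. The mutant mean was 508 ± 78.8 (SD, n = 2), and the WT mean was 520.0 ± 27.8 (SD, n = 3). The log2 difference was -0.04 (SE 0.135, adjusted p = 0.931, limma), with a 95% interval of -0.35 to 0.26. In female mice alone it was -0.20 (95% interval -0.54 to 0.14).

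EpCAM is an adhesion molecule that Langerhans cells share with epithelial cells. The brighter *Epcam* probe set (1416579_a_at) gave 1982 and 2646 in the mutants and 2828, 2469 and 2591 in WT skin. *Clock* mutant replicate 1 was the lowest array, and replicate 2 lay within the WT range. The log2 difference of this probe set was -0.20 (SE 0.125, adjusted p = 0.59, limma). It was 0.01 in female mice, so the difference rested on the male mouse. The dimmer *Epcam* probe set (1447899_x_at) read 354 and 598 in the mutants and 565, 509 and 434 in WT skin, with the mutants again at both ends. Its suffix marks a probe set with probes that may match other transcripts. The difference of the dimmer probe set was -0.12 (SE 0.214, adjusted p = 0.874, limma) and became 0.26 in female mice. The order of the mutants was the same in both probe sets, replicate 1 below replicate 2, and the reverse of the order of *Cd207*.

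*Cd74* encodes the invariant chain, which guides MHC class II molecules to the compartment where they take up peptide. *Cd74* (1425519_a_at) reached 12170 and 13190 in the mutants and 12600, 14030 and 15620 in WT skin. Replicate 1 of the mutants was the lowest array and replicate 2 lay above the lowest WT array, so the groups overlapped. The means were 12680 ± 719 (SD, n = 2) and 14090 ± 1510 (SD, n = 3), and the log2 difference was -0.15 (SE 0.093, adjusted p = 0.589, limma). In female mice it was -0.09. *H2-Aa*, a chain of the MHC class II molecule itself (named after its values were seen), had no overlap between groups, at 7873 and 8333 in the mutants and 8523, 8410 and 9046 in WT skin. Its log2 difference was smaller, -0.10 (adjusted p = 0.643, limma), and was -0.06 in female mice.

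*Csf1r*, the receptor for CSF1 and IL-34 on which both lineages depend, was read by 3 probe sets that did not point the same way. The brightest (1419872_at) gave 6902 and 6253 in the mutants and 6353, 5918 and 6762 in WT skin. The next (1419873_s_at) gave 3624 and 3343 against 3284, 3283 and 3695. In both, the mutants overlapped with WT skin, and the log2 differences were 0.05 (SE 0.083, adjusted p = 0.853, limma) and 0.03 (SE 0.087, adjusted p = 0.93, limma). The third *Csf1r* probe set (1423593_a_at) gave 1719 and 1670 in the mutants, below all WT arrays at 1833, 1928 and 1985. Its log2 difference was -0.18 (SE 0.085), with an adjusted p of 0.488 and a 95% interval of -0.37 to 0.02, and in female mice it was -0.20. In female mice the differences of the other *Csf1r* probe sets were -0.02 and -0.03. The gene as a whole therefore had no single direction on the array. The transcript parts that the 3 probe sets read were not used here.

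Of the macrophage markers, *Adgre1* encodes F4/80, an adhesion receptor of the cell surface. *Adgre1* (1451161_a_at) had 1466 and 1129 in the mutants and 1061, 1229 and 1322 in WT skin. *Clock* mutant replicate 1 was the highest array and replicate 2 lay inside the WT range. The log2 difference was 0.10 (SE 0.138, adjusted p = 0.821, limma) and was -0.09 in female mice.

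*Cd68* encodes a glycoprotein of the lysosomal membrane. *Cd68* (1449164_at) had 829 and 572 in the mutants and 723, 680.5 and 694 in WT skin, so that the mutants lay on either side of a narrow WT range. The means were nearly equal, 701 ± 182 (SD, n = 2) and 699 ± 21.8 (SD, n = 3), and the log2 difference was -0.02 (SE 0.155, adjusted p = 0.971, limma). In female mice it was -0.29 (95% interval -0.59 to 0.01). Without *Clock* mutant replicate 2 it was 0.25 in the other direction. No other marker had a larger adjusted p.

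*Lyz2* encodes the lysozyme of myeloid cells, which cleaves bacterial cell walls. *Lyz2* (1423547_at) had 8885 and 7332 in the mutants and 8732, 8866 and 9302 in WT skin. Replicate 2 of the mutants was the lowest array, while replicate 1 lay among the WT arrays. The log2 difference was -0.15 (SE 0.089, adjusted p = 0.564, limma). In female mice it was -0.29 (95% interval -0.49 to -0.09, adjusted p = 0.596, limma). *Lyz1* is a near-identical copy of *Lyz2*, and its probes may take up *Lyz2* transcripts. Its brightest probe set (1436996_x_at, named after its values were seen) gave 8865 and 7656 in the mutants and 8423, 9134 and 9677 in WT skin, with replicate 2 again the lowest array. Its difference was -0.14 (adjusted p = 0.596, limma) and -0.24 in female mice. Its suffix, like that of 1439426_x_at (-0.10, and -0.21 in female mice), marks probes that may match other transcripts. The *Lyz1* probe set without this suffix (1450822_at) was dim, at 57.7 and 71.5 in the mutants and 54.9, 68.5 and 95.1 in WT skin. It differed by -0.14, and by 0.01 in female mice. The 2 genes cannot be separated by these values.

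*Cd14* encodes the co-receptor that hands lipopolysaccharide to TLR4. *Cd14* (1417268_at) had 396 and 395 in the mutants and 446, 513 and 556 in WT skin, and both mutants lay below every WT array. Means were 395 ± 1.05 (SD, n = 2) and 505 ± 55.3 (SD, n = 3), a level of 0.786 times WT. The log2 difference was -0.35 (SE 0.135, 95% interval -0.65 to -0.04, adjusted p = 0.416, limma). *Cd14* had the largest difference of the 13 probe sets, and the mutants read almost alike while the WT mice varied. In female mice it was -0.35 (95% interval -0.74 to 0.04), so the size did not rest on the male mouse.

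*Mrc1* encodes the mannose receptor CD206, which takes up glycoproteins and is a marker of resident tissue macrophages. *Mrc1* (1450430_at) had 3916 and 3225 in the mutants and 3796, 3219 and 3431 in WT skin, with replicate 1 of the mutants the highest array. The difference was 0.03 (SE 0.106, adjusted p = 0.931, limma) and was -0.11 in female mice. *Cd163* encodes the receptor that clears haemoglobin bound to haptoglobin. *Cd163* (1419144_at) had 2069 and 1648 in the mutants, and the WT arrays lay close together at 2142, 2136 and 2162. Both mutants were below all WT arrays, but replicate 1 only slightly. The means were 1859 ± 297 (SD, n = 2) and 2147 ± 13.8 (SD, n = 3), and the log2 difference was -0.22 (SE 0.106, adjusted p = 0.493, limma). In female mice it was -0.38 (95% interval -0.60 to -0.16, adjusted p = 0.508, limma). Without *Clock* mutant replicate 2 it was -0.05, so most of the *Cd163* difference came from that mouse.

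**Figure D2:**
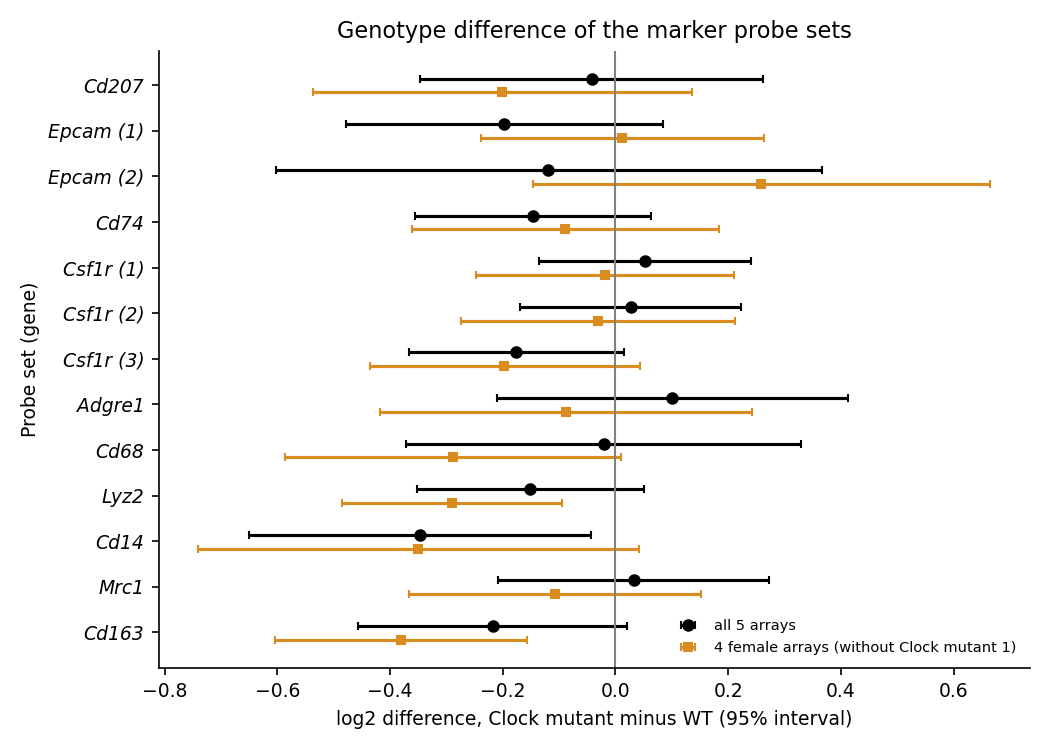
Log2 difference, *Clock* mutant minus WT, of each of the 13 marker probe sets with its 95% interval from limma, for all 5 arrays (black circles) and for the 4 female mice (orange squares). With all arrays the interval of *Cd14* alone, -0.65 to -0.04, leaves out 0. With the female mice the points of *Cd163* and *Lyz2*, at -0.38 and -0.29, lie lower than with all arrays.

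With the male mouse left out, 11 of the 13 differences were negative, against 50.4% of all probe sets, and their median was -0.11, against 0.00 over all probe sets. *Cd163* and *Lyz2* reached an unadjusted p under 0.05, which is 2 of 13 against 6.47% of all probe sets. None of the 13 passed the adjusted threshold, which 0.0481% of all probe sets did. The probe sets that stayed positive were those of *Epcam*. All probe sets of the 7 macrophage genes were negative in this comparison, which rests on the 1 female mutant.

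The gap between the 2 single *Clock* mutant arrays was set against the difference between the group means, which averages over mice. The gap was larger in 10 of the 13 probe sets, against 59.5% of all probe sets, so it was common over the whole array. It was larger than the whole WT range in 8 of the 13, against 37.2%. Replicate 1 was the higher of the pair in 10 of the 13, against 45.7% of all probe sets and 51.6% of the 12812 probe sets at least as bright as the dimmest marker. The gap had a median of 0.28 on the log2 scale over the 13, against 0.13 over those bright probe sets. *Clock* mutant replicate 2 was the lowest of the 5 arrays in 6 probe sets, and replicate 1 was the highest in 5 and the lowest in 3. The exceptions, where replicate 1 was lower, were *Cd74* and both probe sets of *Epcam*. Taken by role, the 7 macrophage genes (the brightest probe set of each) had a median deviation from the WT mean of 0.12 in *Clock* mutant replicate 1 and of -0.29 in replicate 2, while the WT arrays lay between -0.02 and 0.05. *Cd74* and *Epcam*, the genes of the exceptions just named, had medians of -0.30 and -0.04 in the same order. *Cd207*, also a Langerhans cell marker and in neither set, had 0.12 and -0.20, the order of the macrophage genes. Over all probe sets the mutants were at -0.03 and 0.00.

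**Figure D3:**
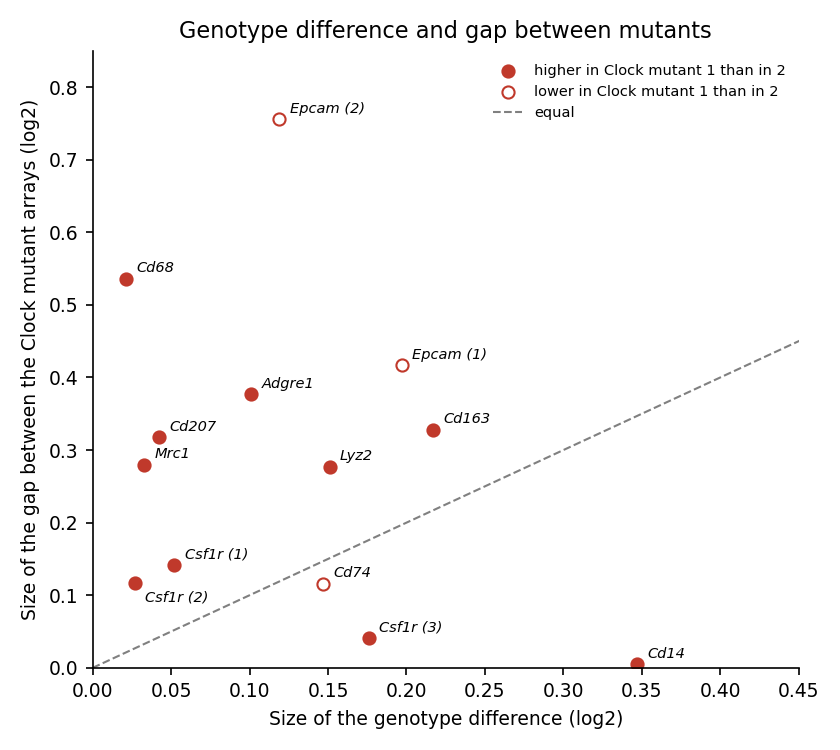
Size of the gap between both *Clock* mutant arrays (vertical axis, log2) against the size of the difference between *Clock* mutant and WT means (horizontal axis, log2) for the 13 marker probe sets. Filled points were higher in replicate 1 and open points in replicate 2, and on the dashed line both sizes are equal. The gap is larger than the genotype difference in 10 probe sets, and *Cd14* lies at the lower right with nearly no gap.

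Other genes of the same cells were read from lists of known markers, each gene by its brightest tested probe set. Of 12955 genes, 4.78% were lower and 5.24% higher in the mutants at an unadjusted p under 0.05, and 46.4% had a negative difference. At the adjusted threshold 0.116% of genes passed, and no gene of the lists named in this and the next paragraphs was among them. Of 27 other macrophage and myeloid genes tested, 3 were lower at an unadjusted p under 0.05 and 0 were higher, 15 differences were negative, and the median was -0.03. In female mice 5 were lower, against 3.88% of all genes, 21 differences were negative, against 48.4%, and the median was -0.13. Without *Clock* mutant replicate 2 the median of these 27 genes was 0.05, so its direction depended on which mutant was read. The smallest p-values were those of *C1qa* and *C1qc*, which encode chains of the complement recognition protein C1q, a product of tissue macrophages. *C1qa* had 2148 and 2431 in the mutants and 3240, 3522 and 2997 in WT skin, without overlap, and a difference of -0.51 (SE 0.097, adjusted p = 0.153, limma). *C1qc* had 2530 and 2281 against 3004, 3117 and 2911, and a difference of -0.33 (SE 0.084, adjusted p = 0.273, limma). The third chain, *C1qb* (named after its values were seen), had 2775 and 2204 against 2666, 2732 and 2908. It overlapped between groups, with a difference of -0.16 (adjusted p = 0.605, limma) that was -0.33 in female mice. Each of these differences was larger in size than those of most of the 13 marker probe sets. *Clock* mutant replicate 1 read higher than replicate 2 in 21 of the 27 genes, as in 8 of the 10 marker genes, against 52.9% of all genes.

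Among 15 scavenger and lectin receptors, the family in which *Mrc1* and *Cd163* act, 14 differences were negative, against 46.4% of all genes, with a median of -0.12. In female mice 13 were negative and the median was -0.18. It was -0.08 with *Clock* mutant replicate 2 left out, and -0.03 with all arrays centred on their medians. The count of 14 is that with the deposited scaling. The count at an unadjusted p under 0.05 was 2 lower and 0 higher with all arrays, and 4 lower and 0 higher in female mice. *Cd36*, a receptor for oxidized lipoproteins and fatty acids, had 5676 and 5043 in the mutants, under all WT arrays at 5959, 6270 and 6576 (difference -0.23, adjusted p = 0.383, limma). *Lyve1*, a hyaluronan receptor of lymphatic endothelium and some macrophages, had 2489 and 2398 against 2644, 3088 and 2923 (difference -0.24, adjusted p = 0.406, limma). Both genes are also made outside macrophages. Of 20 Langerhans and dendritic cell genes tested, 13 were negative, 1 was lower at an unadjusted p under 0.05, and the median was -0.10. In female mice 2 were lower at that p and the median was -0.11. The gene lower with all arrays was *Runx3*, a transcription factor that Langerhans cells need for their development and that T cells also make. *Runx3* had 161 and 124 in the mutants and 199, 214 and 203 in WT skin (difference -0.54, adjusted p = 0.375, limma). *Ccr6*, the receptor for CCL20, was dim at 49.0 and 78.7 against 86.5, 91.5 and 88.1 (difference -0.51, adjusted p = 0.54, limma, and -0.17 in female mice).

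The 13 MHC class II presentation genes had a median of -0.02 (-0.04 in female mice), with 7 negative and 0 past an unadjusted p of 0.05. The smallest p-values were those of *Ciita*, the master activator of MHC class II genes, and of *H2-Oa*, a chain of the peptide loading regulator DO. Both were dim and their differences were -0.41 and -0.42 (adjusted p = 0.567 and 0.572, limma), and that of *Ciita* was -0.24 in female mice. Colony stimulating factors and their receptors (5 tested) had a median of -0.06 and 0 past that p. *Il34*, the keratinocyte ligand of CSF1R, had 549.5 and 629.5 in the mutants and 663, 610.4 and 695 in WT skin, with overlap (difference -0.16, adjusted p = 0.661, limma, and -0.06 in female mice). *Csf2rb2*, a cytokine receptor chain, differed by 0.21 (adjusted p = 0.604, limma) and by 0.08 in female mice. Genes of CD14 and Toll-like receptor signalling, receptors included (9 tested), had a median of 0.05, with 4 negative. *Traf6*, an adaptor, and *Irak1*, a kinase, had differences of 0.27 and 0.19 (adjusted p = 0.463 and 0.48, limma), opposite in sign to that of *Cd14*. The receptors *Tlr4* and *Tlr2* (named after their values were seen) had the sign of *Cd14*, at -0.335 and -0.20 (adjusted p = 0.597 and 0.689, limma). In female mice *Tlr4* was at -0.21 and *Tlr2* at -0.34. Of 6 epithelial partners of *Epcam*, 4 were negative and the median was -0.05, which became 0.04 in female mice. In these, *Cd44*, a hyaluronan receptor, had a difference of -0.19 (adjusted p = 0.413, limma) and *Spint1*, a protease inhibitor, one of -0.20 (adjusted p = 0.567, limma), which was -0.06 in female mice. *Clock* mutant replicate 1 read lower than replicate 2 in all 6 partner genes tested, as *Epcam* did. When arrays were centred on their medians, the median difference of all probe sets moved from -0.02 to 0.07, which turned the small negative medians of the other myeloid genes (0.06), MHC class II genes (0.07), colony stimulating factors (0.03) and *Epcam* partners (0.04) positive. Those of the scavenger receptors (-0.03) and the Langerhans and dendritic cell genes (-0.01) stayed negative. The keratinocyte (0.07), fibroblast (0.08), adipocyte (0.03) and muscle (0.04) medians of the lists described next also became positive in this way.

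**Figure D4:**
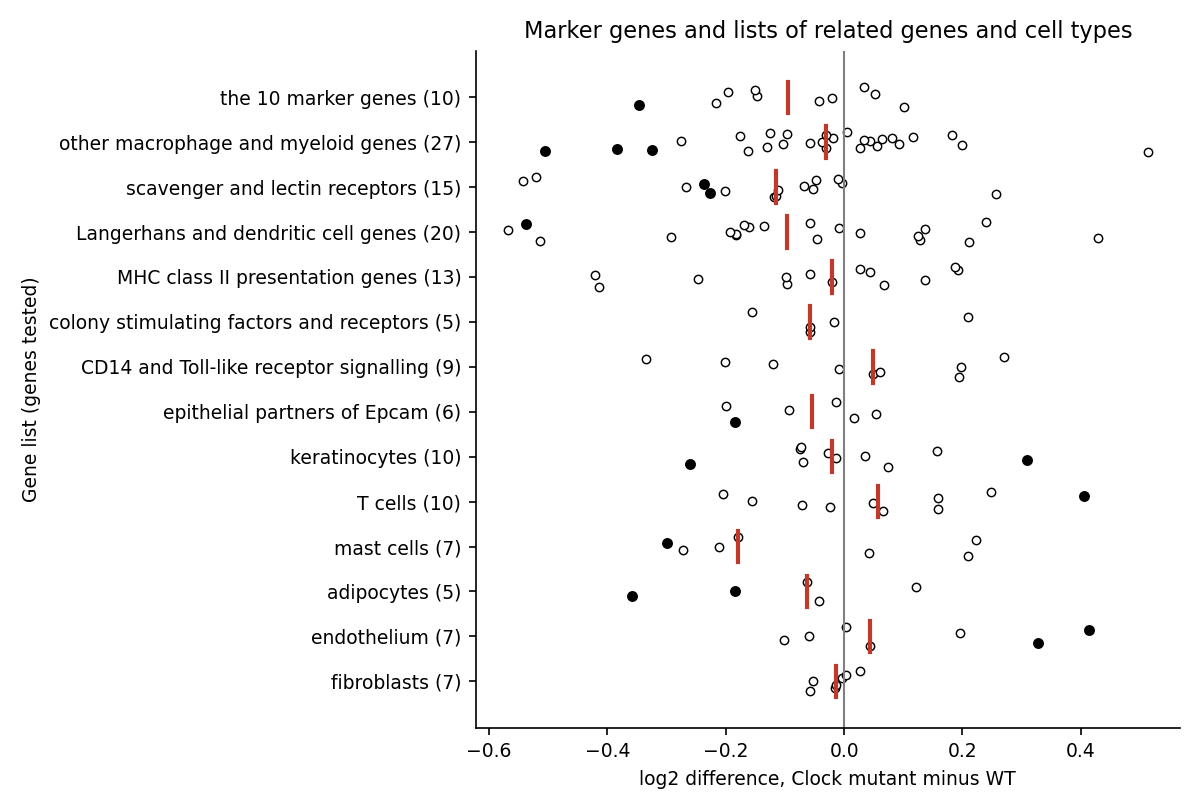
Log2 difference, *Clock* mutant minus WT, of each tested gene (1 point per gene, the brightest probe set) in the 10 marker genes, in related lists and in lists of other cell types of skin, with the number of genes tested after each name. Filled points have an unadjusted p under 0.05 and red lines are list medians. The scavenger receptors lie mostly left of 0. The hair shaft and root sheath list, with a median of 2.03, is among the lists not drawn.

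Markers of other cell types of skin were read on the same arrays, and their part in the values of the macrophage and Langerhans cell markers was not tested. None of the tested genes of these lists was at 0 on any array. The filter on mean intensity left little room for such a value, so this is no evidence of detection. The keratinocyte list (10 of 10 tested) summed to 119000 and 122500 in the mutants and to between 112900 and 122800 in WT skin, with a median difference of -0.02 (0.00 in female mice). The fibroblast list (7 of 7) summed to 120200 and 114400 against 115700 to 126000, with a median of -0.01 (-0.05 in female mice). *Dcn* and *Col1a1*, both of the fibroblast matrix, differed by -0.05 and -0.06 (adjusted p = 0.801 for each, limma). The adipocyte list (5 of 7) summed to 41970 and 36210 against 40850 to 46140, and its median difference of -0.06 was -0.28 in female mice and 0.09 without *Clock* mutant replicate 2. In it *Cidec* and *Fabp4*, of the lipid droplet and of fatty acid transport, had differences of -0.36 and -0.19 (adjusted p = 0.339 and 0.416, limma). All 5 adipocyte genes and all 7 fibroblast genes read higher in *Clock* mutant replicate 1 than in replicate 2, the order seen in most macrophage markers. The endothelial list (7 of 7) was higher in sum in the mutants, 6288 and 6150 against 5521 to 5705, with a median of 0.04 (0.01 in female mice), and *Tek* and *Cldn5* had differences of 0.41 and 0.33 (adjusted p = 0.254 and 0.341, limma).

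Lymphoid and granulocyte markers had no common direction. Nor did the 7 macrophage genes with all arrays, of which 4 were negative by their brightest probe set. The T cell list (10 of 12 tested) summed to 7807 and 7731 in the mutants and to between 5958 and 6876 in WT skin, but most of each sum was *Thy1*, which fibroblasts also make. Without *Thy1* the other 9 genes summed to 2100 and 2047 in the mutants and to between 1819 and 2147 in WT skin, so that the groups overlapped. The list had 4 negative differences of 10 and a median of 0.06 (0.09 in female mice). *Thy1* and *Zap70*, a kinase of the T cell receptor, had differences of 0.41 and 0.25 (adjusted p = 0.3 and 0.605, limma), and that of *Zap70* was 0.00 in female mice. The mast cell list (7 of 9) had a median of -0.18 (-0.01 in female mice), with *Mcpt4* at -0.30 and *Cma1* at 0.21 (adjusted p = 0.302 and 0.544, limma), both mast cell proteases. *Cma1* was at 0.03 in female mice. Only 2 B cell genes passed the filter, *Ighm* and *Blk*, with differences of 0.37 and 0.11 (adjusted p = 0.486 and 0.902, limma) that were 0.19 and 0.28 in female mice. The 2 neutrophil genes that passed, *S100a8* and *S100a9*, had differences of -0.17 and 0.16 (adjusted p = 0.871 and 0.895, limma), or -0.10 and 0.54 in female mice. The keratins and cornified envelope genes split, with *Krt1* at 0.31 and *Flg* at -0.26 (adjusted p = 0.34 and 0.376, limma). In muscle *Mb* was at 0.55 and *Myh4* at -0.11 (adjusted p = 0.44 and 0.529, limma), and *Mb* was at 0.10 in female mice and 1.00 without *Clock* mutant replicate 2. The median of the 8 muscle genes was -0.05, and -0.10 in female mice. In the hair shaft and root sheath list *Krt73* and *Tchh* were at 2.03 and 1.74 (adjusted p = 0.311 and 0.31, limma). In female mice they were at 0.96 and 0.76, with a list median of 0.96, and without *Clock* mutant replicate 2 they were at 3.09 and 2.72, so that their size rested largely on the male mouse.

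The pattern of each marker over the 5 arrays was compared with that of the others by the root mean square (RMS) difference of their log2 intensities, each gene centred on its own mean. Over the 45 pairs of the 10 genes, the median RMS difference was 0.15. The closest pair was *Lyz2* and *Cd163*, at 0.04, both with *Clock* mutant replicate 2 lowest. The pair farthest apart was *Epcam* and *Adgre1*, at 0.33, which have *Clock* mutant replicate 1 at opposite ends. Among 12954 other genes, the nearest to *Cd207* were *Cbr4*, *Clec4a3* and *Hspg2*, with RMS differences of 0.01, 0.02 and 0.02. *Clec4a3* belongs to a family of myeloid lectins, and it had 497 and 413 in the mutants and 443, 456 and 492 in WT skin. The nearest marker to *Cd207* was *Lyz2*, in place 144. For *Csf1r* the nearest genes were *Pdha1*, *Napa* and *Tatdn3*, all at 0.01, and the nearest marker was *Cd207*, in place 1872. For *Cd74* they were *Mphosph10*, *9930104L06Rik* and *Poc1b*, all at 0.02, and the nearest marker was *Cd14*, in place 1407. With 5 arrays, a small RMS difference is reached by many genes, and these are descriptions with no test.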

How the data were processed

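RNA of dorsal skin from 5 mice was extracted with Trizol, labelled and hybridized to 1 array each. Per the labels, the authors computed the deposited signal intensity of each probe set with MAS5, which scales each array by 1 factor (here a 2% trimmed mean of 500). The version and detection calls were not used here. The mice are labelled as biological replicates. Of 45101 probe sets, 64 controls were left out, and 34945 of the others had 1 gene symbol, 932 several and 9160 none.

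The 2441 values below an intensity of 1 were raised to 1 before log2. Array medians differed by less than 0.2, so the deposited scaling was kept. A mean log2 intensity at or above the 40th percentile (56.7 on the linear scale) was required, which left 27022 probe sets. These were fitted in limma 3.58.1 (R 4.3.3) by lmFit, and eBayes was run with a trend on intensity. Tests were two-sided. P-values were adjusted by Benjamini-Hochberg across the 27022, with a threshold of 0.05. The script was tested on simulated data. A gene in a list stands for its brightest tested probe set. Named are all markers, the 2 genes of each list with the smallest p, the nearest genes in pattern, *Per2*, *Per3* and *Dbp*. The markers and lists were chosen with earlier results of these data known. Levels were not compared between probe sets. The alternatives were other scalings, filters, a pseudocount of 32, other variance models, averaging the probe sets of a gene, a replicate block, and leaving out each array.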

Additional observations from a re-analysis of the deposited data

How the results depend on the processing

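The count of marker probe sets past the adjusted threshold was 0 of 13 under every alternative run. At an unadjusted p under 0.05 it was between 0 and 3. The count of 3 came with quantile normalization, where 2786 of all 27022 probe sets were under that p. The number of all probe sets past the adjusted threshold depended strongly on the setting. It was 24 as reported, 10 with no filter on intensity, 47 with the Cyber-T style test and 0 in limma without the intensity trend (2631 at an unadjusted p under 0.05). Leaving out 1 array gave 0 to 201: 13 without *Clock* mutant replicate 1, 201 without *Clock* mutant replicate 2, 20 without WT replicate 1, and 0 without WT replicate 2 or 3 (1581 and 2194 unadjusted). *Per2* and *Per3* lost their calls without *Clock* mutant replicate 1, without WT replicate 2 or 3 and without the trend, and *Per2* also with no filter, while their differences in these settings stayed between -1.17 and -1.09 for *Per2* and between -1.75 and -1.48 for *Per3*. The median difference of the 13 probe sets was -0.03 with median centring and ran from -0.107 to -0.013 with 1 array left out, the latter without *Clock* mutant replicate 2. Of all probe sets at an unadjusted p under 0.05, 62.1% were lower in the mutants as reported, 29.3% with median centring and 53.8% with quantile normalization. The labels do not say whether mice with the same replicate number were matched, and the numbers were not used as pairs in the main fit. The deviations of same-numbered arrays correlated at 0.008 and 0.099. These values cannot decide it, since the deviations of 2 mutants from their mean mirror each other. With a replicate block 106 probe sets passed, no marker among them, and *C1qa* and *Tchh* did (adjusted p = 0.0336 and 0.0133). *Krt73*, *Tchh* and *Mb* passed without *Clock* mutant replicate 2.

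Differences near 0 changed sign. With median centring *Cd207* became 0.047, *Cd68* 0.067, *Col1a1* 0.03 and *Dcn* 0.037. With the replicate block *Cd207* became 0.001, *S100a8* 0.166 and *Col1a1* 0.002. Over the mean of its probe sets *Csf1r* was -0.032. With 1 array left out *Cd207* ran from -0.20 to 0.12, *Cd68* from -0.29 to 0.25, *Adgre1* from -0.087 to 0.29, *Mrc1* from -0.11 to 0.17, the brighter *Csf1r* probe sets from -0.019 to 0.124 and from -0.031 to 0.086, and the *Epcam* probe sets from -0.406 to 0.012 and from -0.496 to 0.259. Likewise *S100a8* ran from -0.37 to 0.17, *S100a9* from -0.22 to 0.54, *Blk* from -0.048 to 0.277 and *Col1a1* from -0.089 to 0.002. *Cd14* (-0.43 to -0.26), *Cd163* (-0.38 to -0.05), *Lyz2* (-0.29 to -0.01), *Cd74* (-0.22 to -0.06) and the third *Csf1r* probe set (-0.21 to -0.09) stayed negative under every alternative run. The cause of these changes was not tested. Without detection calls, signal over background could not be read per probe set.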
